A study of Mus musculus with 6 samples.

Results

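Nuclear receptors are transcription factors, many of which change the genes they control when a hormone, vitamin, lipid, bile acid or drug binds them. The 45 genes described here are the rows of the deposited count table whose symbol belongs to this superfamily, of 52323 genes in all. The rule that picks them is family membership and not their values, and Hnf4a was left out of the list. The members were set with earlier results of these data known. A filter on low counts left 36 of the 45 receptors among the 19135 genes that could be tested.

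The RNA came from damaged hepatocytes (dHeps), cells taken from mice whose livers had been injured with carbon tetrachloride (CCl4) and then cultured for 16 days in serum-free Hepatocyte Maintenance Medium. All 6 libraries came from AAV-TBG-Cre:Rosa-LSL-tdTomato mice, in which a virus carries Cre under the TBG promoter, active in hepatocytes, and turns on a red fluorescent protein there. The 2 DMSO libraries received the solvent alone. The 2 libraries of the cocktail 3C received CID755673 at 50 µM, GSK429286A at 2 µM and ETC1002 at 5 µM. The 2 libraries of the cocktail 5C received the same compounds at the same doses with salidroside at 5 µM and forskolin at 2 µM. The study describes CID755673 as an inhibitor of protein kinase D, GSK429286A as an inhibitor of ROCK and ETC1002 (bempedoic acid) as an activator of AMPK. ETC1002 is also used as an inhibitor of ATP citrate lyase. Forskolin activates adenylyl cyclase and raises cyclic AMP. Since 5C added salidroside and forskolin together, their shares in a difference between 5C and 3C cannot be told apart. By the methods, mice were 8 to 10 weeks old when they received the virus, males and females mixed, and CCl4 injury followed. The study uses n for biological replicates, but the labels tie no library to an animal or culture, so the p-values measure the spread between these libraries, which may be technical.

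Most nuclear receptors bind DNA as partners of a retinoid X receptor (RXR), as pairs of themselves or as single molecules, and recruit coactivators or corepressors to the genes they bind. In hepatocytes, PPARα (Ppara) governs fatty acid oxidation, FXR (Nr1h4) governs bile acid handling, and PXR (Nr1i2) and CAR (Nr1i3) govern drug and steroid clearance. LRH-1 (Nr5a2) and SHP (Nr0b2) act on cholesterol and bile acid synthesis, SHP as a repressor without a DNA-binding domain. The NR4A receptors are immediate-early genes, and REV-ERB and ROR receptors are parts of the circadian clock.

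The libraries held between 65916573 and 69245895 estimated counts each, and levels within a gene are given as CPM, the count divided by its library's total and scaled to a common library size. Hepatocyte markers (Alb, Ttr, Cps1 and 9 others) summed to 3611 and 4034 CPM in DMSO, to 16600 and 17515 CPM in 3C and to 17029 and 23232 CPM in 5C, so the labelled cell type was present in every library. Markers of macrophages (12 genes, among them Adgre1, Csf1r and C1qa) summed to 12369 and 13439 CPM in DMSO, to 4222 and 4225 CPM in 3C and to 2802 and 2904 CPM in 5C. Stellate and fibroblast markers summed to 5264 and 6118 CPM in DMSO, to 4522 and 4576 CPM in 3C and to 6979 and 7531 CPM in 5C. Their median log2 fold change against DMSO was 0.50 in 3C, where the sum was lower, and 0.22 in 5C. Mesothelial markers ranged from 974 to 1407 CPM in DMSO and 3C and reached 2313 and 2416 CPM in 5C. Endothelial markers lay at 355 and 379 CPM in DMSO and between 103 and 244 CPM in the cocktails, although the median of these genes was higher than in DMSO, by 0.52 in 3C and 1.31 in 5C on the log2 scale. Cholangiocyte markers lay between 2425 and 3782 CPM, although their median was higher than in DMSO, by 1.53 in 3C and 1.03 in 5C. A sum can thus differ in direction from the median of its list. The T cell marker Cd3e was at 0 in every library. In bulk RNA, fewer cells of a type and less RNA per cell cannot be told apart. These sums moved with the treatments, as the receptors did, and their part in the receptor differences was not tested.

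**Figure D1:**
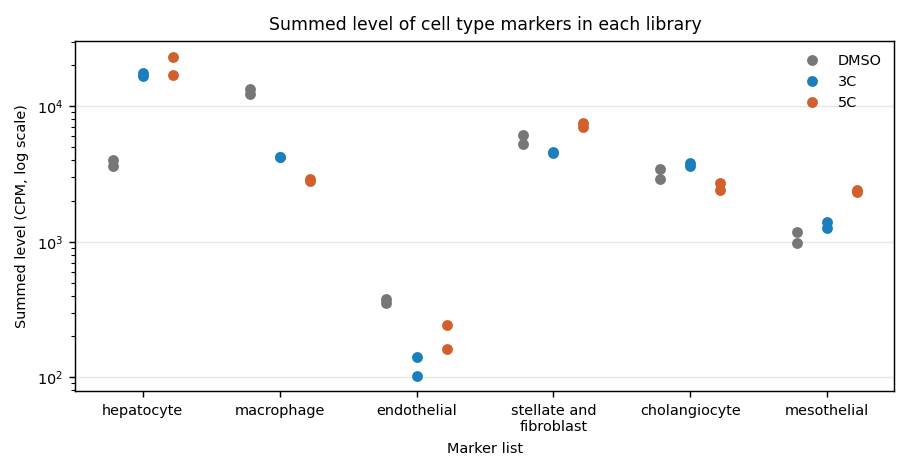
Summed level of 6 lists of cell type markers (CPM, log scale) in each of the 6 libraries, 1 point per library, coloured by group. Macrophage markers were highest in DMSO at 12369 and 13439 CPM, hepatocyte markers were lowest in DMSO at 3611 and 4034 CPM, and mesothelial markers were highest in 5C at 2313 and 2416 CPM.

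Levels of different receptors were compared with the deposited FPKM, which are scaled to gene length as well as to library size. The receptor with the highest mean was Nr2f6 (EAR2, an orphan of the COUP family) at 52.4 FPKM, followed by Nr1h2 (LXRβ) at 49.0, Rxra at 37.5, Rxrb at 23.3 and Esrra at 21.0 FPKM. These first 5 in each library held between 45.3% and 49.2% of the summed receptor FPKM, which was 333 and 364 in DMSO, 415 and 418 in 3C and 382 and 419 in 5C. Between 28 and 30 receptors per library reached 1 FPKM. Nr2f6 and Nr1h2 overlapped in their library values, at 38.8 to 62.3 FPKM against 41.1 to 54.6 FPKM, so their order was within the spread. Nr0b1, Nr2e1 and Nr2e3 were at 0 in every library. The other 6 untested receptors (Esr2, Pgr, Esrrb, Esrrg, Hnf4g and Nr5a1) were at or under the floor in at least 5 of 6 libraries. The floor is 12 count units, 3 fragments if a fragment stands for 4 units, or about 0.173 to 0.182 CPM. That scale is an assumption, since the values do not state it.

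**Figure D2:**
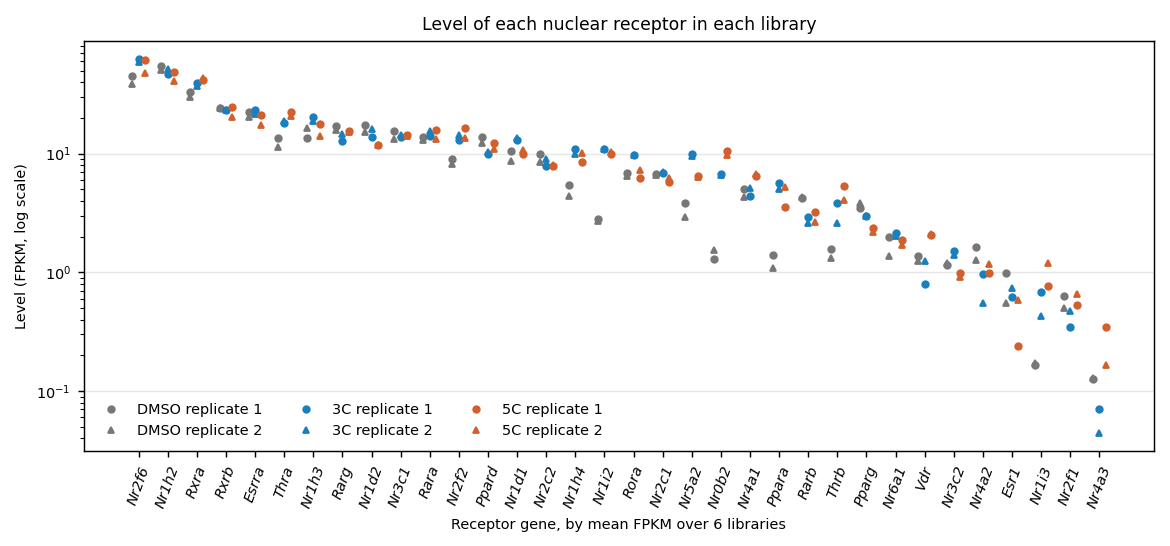
Level of each of the 34 receptors that lay above the floor in all 6 libraries (FPKM, log scale), ordered by mean level, with 1 point per library and colour by group. The means run from 52.4 FPKM for Nr2f6 to 0.147 FPKM for Nr4a3, and the grey DMSO points lie apart from the cocktails for Nr1i2, Nr5a2, Nr0b2, Ppara and Nr1i3.

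A receptor was called changed when its adjusted p in edgeR's quasi-likelihood test was under 0.05. In 5C against DMSO, 17 of the 36 tested receptors passed, 14 higher and 3 lower. That was 47.2% of them where 28.7% of all tested genes passed, 15.6% higher and 13.1% lower. In 3C against DMSO, 18 passed, 14 higher and 4 lower. That was 50% where 24.5% of all genes passed, 12.7% higher and 11.8% lower. In 5C against 3C, 6 passed, 4 higher and 2 lower. That was 16.7%, close to the 12.7% of all genes that passed, 7.33% higher and 5.33% lower. That last count depended on single libraries: leaving out 1 library gave 0 to 5 higher and 0 to 3 lower, the lowest counts without 5C replicate 2 (0 higher) and without 3C replicate 1 or 2 (0 lower). With a change above 1 on the log2 scale also required, 6 receptors were higher in 5C against DMSO (7.3% of all genes were), 8 in 3C against DMSO (5.83% of all genes) and 2 in 5C against 3C (2.16% of all genes). None was lower by that rule, where 4.42%, 3.62% and 0.852% of all genes were. These counts hold Rxrg, which is at 0 in both DMSO libraries, passed the filter through the cocktails alone and so had to differ from DMSO: without it 13 receptors were higher in each cocktail against DMSO, 5 in 5C and 7 in 3C with a change above 1. The median receptor differed by 0.06, 0.09 and -0.04 (log2 fold change) in these comparisons, and the median gene by 0.00, 0.01 and -0.01.

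Both comparisons with DMSO share the same 2 solvent libraries, so their values are given side by side and not as independent results. Of the 36 receptors, 12 passed higher in both (Nr0b2, Nr1h4, Nr1i2, Nr1i3, Nr2f2, Nr2f6, Nr5a2, Ppara, Rxra, Rxrg, Thra and Thrb), or 11 without Rxrg, and 1 passed lower in both (Rarb). Of all tested genes, 9.52% passed higher in both and 8.03% lower in both. Another 4 passed in 5C alone and 5 in 3C alone, and none passed in opposite directions. Passing in one and not in the other does not show a difference between the cocktails, which the direct comparison tests. The 13 receptors that passed in none of the 3 comparisons were Esr1, Esrra, Nr1h2, Nr1h3, Nr2c1, Nr2c2, Nr2f1, Nr3c1, Nr3c2, Nr6a1, Rara, Rorb and Rxrb.

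**Figure D3:**
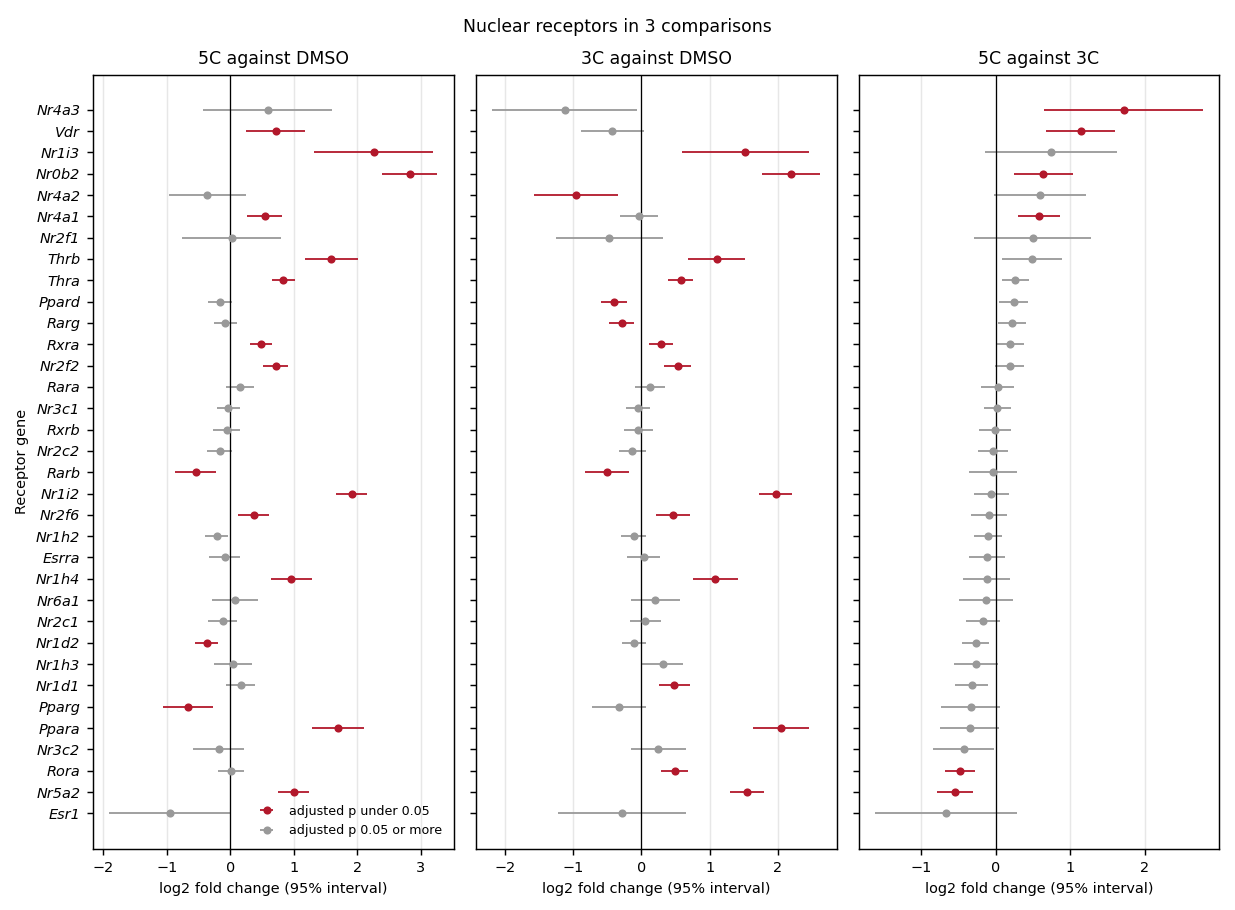
Log2 fold change with its 95% interval for the 34 receptors above the floor in every library, in 3 comparisons, ordered by the difference between 5C and 3C; red marks an adjusted p under 0.05. On the right, Nr4a3, Vdr, Nr0b2 and Nr4a1 are higher in 5C, and Rora and Nr5a2 are lower; the first 2 panels share the DMSO libraries.

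Vdr, the vitamin D receptor, had the lowest adjusted p of the 6 receptors that differed between the cocktails. In liver it is known mainly from stellate cells, macrophages and bile duct cells rather than hepatocytes. The gene (ENSMUSG00000022479) lies on chromosome 15 from 97752306 to 97808511 on the minus strand of GRCm39. Its level was 6.46 and 6.11 CPM in DMSO, 3.97 and 5.61 CPM in 3C and 9.95 and 10.4 CPM in 5C. The 5C libraries lay above all others, and both 3C libraries lay below both DMSO libraries. The level in 5C was 2.20 times that in 3C (log2 fold change 1.14, SE 0.20, 95% interval 0.67 to 1.60, adjusted p = 0.00717). Against DMSO, Vdr was higher in 5C by 0.71 (SE 0.20, adjusted p = 0.0274), and its value in 3C was -0.42 (adjusted p = 0.182). The call between cocktails was lost without 3C replicate 1, where the log2 fold change was 0.91, and without 5C replicate 2, where it was 1.08. The call against DMSO was lost without any 1 of the 4 libraries compared, at 0.66 to 0.76 (adjusted p = 0.0817 to 0.125). Beside this, stellate and mesothelial marker sums were higher in 5C than in 3C. Macrophage sums were lower (2802 and 2904 against 4222 and 4225 CPM), as were cholangiocyte sums (2425 and 2730 against 3595 and 3782 CPM). The stellate markers were split, with 3 of 10 higher and 2 lower in 5C than in 3C and a median of 0.18. The part of these sums in the Vdr difference was not tested. Of 4 textbook VDR targets, 3 could be tested and none passed between the cocktails. S100g, which codes for the calcium-binding protein calbindin-D9k, passed higher in 3C against DMSO by 1.87 (adjusted p = 0.0240), and averaged 0.353 ± 0.0697 CPM in DMSO, 1.32 ± 0.435 CPM in 3C and 0.571 ± 0.0931 CPM in 5C (SD, n = 2). Its DMSO level was near the low-count floor of 0.179 and 0.182 CPM in those libraries, so that change is uncertain.

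The NR4A receptors Nr4a1, Nr4a2 and Nr4a3 (Nur77, Nurr1 and NOR1) are induced within minutes to hours by many stimuli, cyclic AMP among them, and bind DNA without a known hormone. Nr4a1 was the most abundant, at 13.3 and 12.1 CPM in DMSO, 12.5 and 12.8 CPM in 3C and 17.4 and 19.0 CPM in 5C. DMSO and 3C overlapped, and both 5C libraries lay above them. Nr4a1 was 1.49 times higher in 5C than in 3C (log2 fold change 0.58, SE 0.12, adjusted p = 0.0150) and higher than in DMSO by 0.54 (SE 0.12, adjusted p = 0.00929). Without 5C replicate 2, and without either 3C replicate, the call between the cocktails was lost, at 0.49 to 0.60 (adjusted p = 0.101 to 0.123). The call against DMSO was lost without 5C replicate 2, at 0.46 (adjusted p = 0.0673).

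Nr4a3 was scarce, at 0.789 and 0.834 CPM in DMSO, 0.468 and 0.293 CPM in 3C and 1.35 and 1.07 CPM in 5C. The 3 groups did not overlap, with 3C lowest and 5C highest. The level was 3.27 times higher in 5C than in 3C (log2 fold change 1.71, SE 0.47, 95% interval 0.65 to 2.78, adjusted p = 0.0455). Neither cocktail passed against DMSO, with 0.59 (adjusted p = 0.391) in 5C and -1.12 (adjusted p = 0.123) in 3C. This call was the least stable of the 6: it was lost in 9 of 14 alternative analyses, whose log2 fold changes ran from 0.24 to 2.08, and it was lost without any 1 of the 4 cocktail libraries, at 1.42 to 2.08 (adjusted p = 0.107 to 0.255).

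Nr4a2 also had a higher mean in 5C than in 3C but did not pass between them. Its level was 5.09 and 4.90 CPM in DMSO, 3.25 and 2.01 CPM in 3C and 3.75 and 3.91 CPM in 5C. Nr4a2 was lower in 3C than in DMSO (log2 fold change -0.96, SE 0.27, adjusted p = 0.0305), while 5C against 3C gave 0.60 with an interval from -0.02 to 1.21 (adjusted p = 0.216). In 5C the difference from DMSO was -0.36 (adjusted p = 0.370). The 3C call was lost without either DMSO library, 3C replicate 2 or 5C replicate 1, at -0.97 to -0.66 (adjusted p = 0.0511 to 0.202).

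Forskolin is in 5C alone, and cyclic AMP acts on many promoters through the cyclic AMP response element, so receptor promoters were searched on both strands for the core TGACG of that element. RefSeq windows of 300 bases (250 before and 50 after the annotated start, GRCm38.p6) were at hand for 41 of the 45 receptors, as 61 promoters. The core stood in 27.9% of these promoters and in 20.8% of all 32851 promoters. The 3 NR4A promoters each held 4 cores, a number reached by 0.231% of all promoters and by no other receptor promoter. That limit equals the number these 3 promoters hold and was not part of the plan, so the share is a description and not a test. The full element TGACGTCA, which contains the core on each strand, stood in 1.79% of all promoters, and among receptors only in those of Nr2e1 and Nr6a1. The 250 bases before the start are printed because Nr4a1 and Nr4a3 were among the receptors that differed between the cocktails; capitals mark the cores, written TGACG or, where they lie on the other strand, CGTCA. Positions of Nr4a1 are chr15:101266596-101266845 on the plus strand, those of Nr4a2 chr2:57124004-57124253 on the minus strand and those of Nr4a3 chr4:48045055-48045304 on the plus strand, all in GRCm38.p6.
Nr4a1: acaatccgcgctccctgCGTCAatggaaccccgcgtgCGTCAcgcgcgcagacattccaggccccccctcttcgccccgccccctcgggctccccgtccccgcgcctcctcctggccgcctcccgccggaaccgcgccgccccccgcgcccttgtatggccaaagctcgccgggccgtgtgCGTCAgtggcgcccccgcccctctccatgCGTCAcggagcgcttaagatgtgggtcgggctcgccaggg
Nr4a2: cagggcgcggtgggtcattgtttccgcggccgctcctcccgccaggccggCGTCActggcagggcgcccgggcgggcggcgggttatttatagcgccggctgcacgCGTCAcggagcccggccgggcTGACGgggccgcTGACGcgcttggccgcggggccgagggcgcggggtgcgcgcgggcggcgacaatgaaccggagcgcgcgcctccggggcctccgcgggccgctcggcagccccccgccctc
Nr4a3: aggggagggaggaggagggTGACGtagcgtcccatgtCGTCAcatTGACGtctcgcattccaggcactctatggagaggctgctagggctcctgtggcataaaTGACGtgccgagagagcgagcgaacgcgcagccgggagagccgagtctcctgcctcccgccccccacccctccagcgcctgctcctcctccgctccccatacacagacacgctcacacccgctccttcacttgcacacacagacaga
The sites begin 233, 213, 69 and 40 bases before the start in Nr4a1, 200, 144, 123 and 111 bases before it in Nr4a2, and 231, 213, 205 and 147 bases before it in Nr4a3. A match is a description of these letters and not evidence of binding. Of the other receptors that differed between the cocktails, none had a core in its window. A core stood in a promoter of 15 receptors, of which Esr2, Esrrb and Nr2e1 could not be tested. Of the others only Nr4a1 and Nr4a3 passed between the cocktails. Among all 36 tested receptors, with or without a core, 6 passed (16.7%). Nr4a2 with 4 cores and Nr6a1 with the full element did not pass, nor did Thrb, Ppara or Ppard. Any part of these letters in the differences was not tested. The E-box CACGTG, the binding motif of CLOCK and BMAL1, stood in 7.15% of all promoters and in a promoter of Esr2, Nr0b2, Nr1i3, Rara and Thrb. The ROR element TAGGTCA stood in 2.61% of all promoters and in none of the receptors'.

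Nr5a2 and Nr0b2 differed between the cocktails in opposite directions. Nr5a2 (LRH-1), on chromosome 1 from 136770303 to 136888186 (minus strand, GRCm39), promotes bile acid synthesis and cholesterol transport genes. Its level was 16.8 and 14 CPM in DMSO, 46.8 and 44.7 CPM in 3C and 29.6 and 31.1 CPM in 5C. The 3 groups were apart, with 5C between the others. Nr5a2 was 2.91 times higher in 3C than in DMSO (log2 fold change 1.54, SE 0.11, adjusted p = 1.59e-05) and 2.00 times higher in 5C (1.00, SE 0.11, adjusted p = 0.000140). In 5C it was 1.46 times lower than in 3C (-0.54, SE 0.11, adjusted p = 0.0108).

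Nr0b2 (SHP), on chromosome 4 from 133280678 to 133283847 (plus strand, GRCm39), is a target of FXR and represses LRH-1. It stood at 1.59 and 2.00 CPM in DMSO, 8.56 and 8.27 CPM in 3C and 13.0 and 12.3 CPM in 5C. No groups overlapped, and here 5C was the highest. The rise over DMSO was 7.12-fold in 5C (log2 fold change 2.83, SE 0.19, adjusted p = 7.80e-06) and 4.57-fold in 3C (2.19, SE 0.19, adjusted p = 4.32e-05), the largest of any receptor above the floor in every library. In 5C it was 1.56 times higher than in 3C (0.64, SE 0.17, adjusted p = 0.0451). Both rises over DMSO passed in all 14 alternatives for each gene. Between the cocktails the Nr0b2 call was lost without any 1 of the 4 cocktail libraries, at 0.61 to 0.66 (adjusted p = 0.164 to 0.235). The Nr5a2 call was lost without either 3C library or 5C replicate 1, at -0.57 to -0.50 (adjusted p = 0.0636 to 0.0970).

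Rora (RORα), which binds the same elements as the REV-ERB repressors and activates clock and lipid genes, was the other receptor lower in 5C than in 3C. It lies on chromosome 9 from 68561068 to 69295528 (plus strand, GRCm39). Its level was 74.8 and 73.0 CPM in DMSO, 106 and 106 CPM in 3C and 67.2 and 79.3 CPM in 5C. The 5C libraries lay on either side of DMSO, and 3C stood above both. Rora was 1.39 times lower in 5C than in 3C (log2 fold change -0.48, SE 0.09, adjusted p = 0.00839), higher in 3C than in DMSO by 0.49 (SE 0.09, adjusted p = 0.00371), and at 0.01 in 5C against DMSO, with an interval from -0.19 to 0.21. Its call between the cocktails was lost without either 3C library, at -0.48 both times (adjusted p = 0.0647 and 0.0679).

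**Figure D4:**
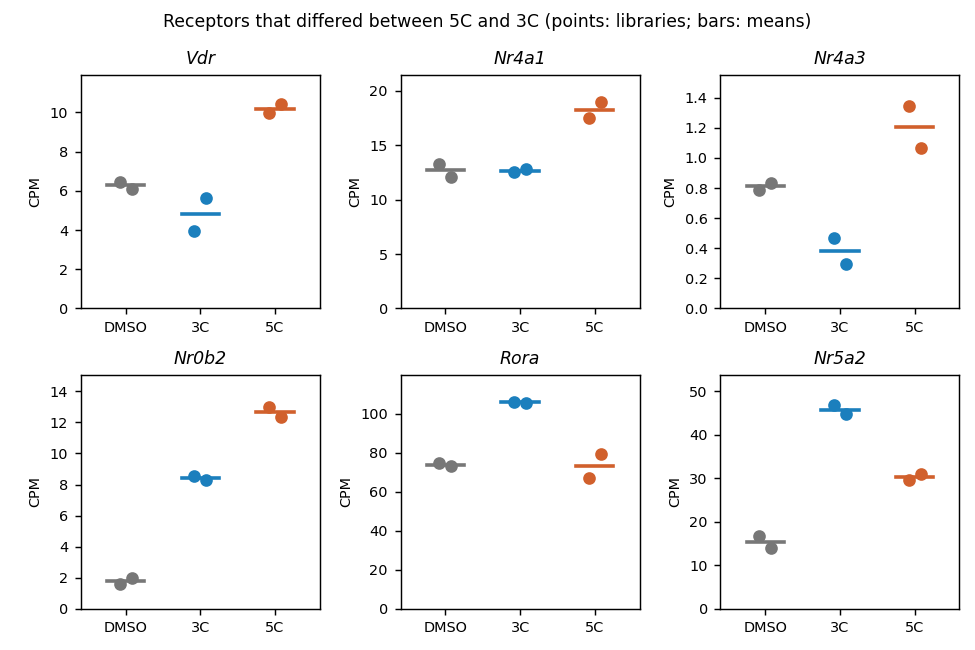
Level (CPM, axis from 0) of the 6 receptors that passed in 5C against 3C, with 1 point per library and a bar at the mean of the 2 libraries. Vdr, Nr4a1, Nr4a3 and Nr0b2 are highest in 5C, at up to 10.4, 19.0, 1.35 and 13.0 CPM, while Rora and Nr5a2 are highest in 3C, at 106 and 46.8 CPM.

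The repressors of the clock loop, Nr1d1 and Nr1d2 (REV-ERBα and β), lay just outside the threshold between the cocktails. Nr1d1 stood at 29.4 and 26.4 CPM in DMSO, 39.0 and 40.9 CPM in 3C and 29.4 and 32.2 CPM in 5C. It was higher in 3C than in DMSO by 0.49 (SE 0.10, adjusted p = 0.00649), and 5C against 3C gave -0.32 (interval -0.55 to -0.10, adjusted p = 0.0699). Nr1d2 was lower in 5C than in DMSO by 0.37 on the log2 scale (SE 0.08, adjusted p = 0.00764), with 5C against 3C at -0.27 (adjusted p = 0.0659). The Nr1d1 call was lost without 3C replicate 2, at 0.45 (adjusted p = 0.0636), and the Nr1d2 call without 5C replicate 1, at -0.30 (adjusted p = 0.0561). Rorb was at or under the floor in 5 of 6 libraries and gave no usable fold. Nr1d1, Nr1d2 and Rora all had a point estimate below 0 in 5C against 3C, and of them Rora alone passed. A list of 13 clock genes under REV-ERB and ROR control includes Nr1d1 and Nr1d2. Between the cocktails 1 of them passed higher (Nfil3, by 0.35, adjusted p = 0.00998) and none lower. Of all tested genes, 7.33% passed higher and 5.33% lower, so the number higher was close to the share of all genes. Against DMSO the largest changes that passed on that list were those of Hlf, a circadian transcription factor, higher by 2.22 in 5C (adjusted p = 0.000918) and 2.09 in 3C (adjusted p = 0.00154), and of Npas2, a partner of BMAL1, higher by 0.84 in 5C (adjusted p = 0.00327) and 0.79 in 3C (adjusted p = 0.00502).

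Of the 8 lipid, bile acid and xenobiotic sensors, 4 were higher than in DMSO with each cocktail (Ppara, Nr1h4, Nr1i2 and Nr1i3). In each case 1 was lower, Pparg in 5C and Ppard in 3C, and none passed between the cocktails. Ppara stood at 5.18 and 4.2 CPM in DMSO, 21.4 and 18.1 CPM in 3C and 13.1 and 16.9 CPM in 5C. It was 3.23 times higher in 5C than in DMSO (log2 fold change 1.69, SE 0.18, adjusted p = 0.000125) and 4.12 times higher in 3C (2.04, SE 0.18, adjusted p = 5.50e-05). Every cocktail library lay above DMSO. The difference between cocktails was -0.35 (interval -0.74 to 0.04, adjusted p = 0.260).

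Nr1i2 (PXR) stood at 7.79 and 7.74 CPM in DMSO, 31.4 and 30.8 CPM in 3C and 27.7 and 30.0 CPM in 5C. It was 3.76 times higher in 5C (log2 fold change 1.91, SE 0.11, adjusted p = 2.72e-06) and 3.92 times higher in 3C (1.97, SE 0.11, adjusted p = 4.36e-06). The interval of the difference between cocktails ran from -0.29 to 0.17. Nr1i3 (CAR) was far scarcer, at 0.536 and 0.592 CPM in DMSO, 2.14 and 1.17 CPM in 3C and 2.20 and 3.13 CPM in 5C. All cocktail libraries lay above DMSO, and Nr1i3 rose by 2.26 in 5C (SE 0.41, adjusted p = 0.00313) and by 1.52 in 3C (SE 0.41, adjusted p = 0.0248), while 5C against 3C gave 0.74 with an interval from -0.14 to 1.62. The 3C call was lost without either DMSO library or 3C replicate 1, at 1.02 to 1.61 (adjusted p = 0.0650 to 0.207).

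Nr1h4 (FXR) stood at 11.7 and 9.91 CPM in DMSO, 24.8 and 21.9 CPM in 3C and 18.7 and 22.7 CPM in 5C. It rose by 0.96 in 5C (SE 0.14, adjusted p = 0.000958) and by 1.08 in 3C (SE 0.14, adjusted p = 0.000570), with -0.12 between the cocktails (interval -0.44 to 0.20). Pparg, known for lipid storage and for its role in macrophages, was lower in 5C than in DMSO by 0.66 on the log2 scale (SE 0.17, adjusted p = 0.0189), falling from 8.0 and 9.22 CPM to 5.50 and 5.23 CPM, with 7.08 and 6.95 CPM in 3C. That call was lost without DMSO replicate 2 or either 5C library, at -0.69 to -0.54. In 3C against DMSO Pparg gave -0.33 and did not pass (adjusted p = 0.221). The macrophage marker sum was lower than in DMSO with both cocktails, and its part in the Pparg difference was not tested. Ppard, the widely expressed PPAR, was lower in 3C than in DMSO by 0.40 on the log2 scale (SE 0.08, adjusted p = 0.00794), a call lost without 3C replicate 1, at -0.36 (adjusted p = 0.0812). The oxysterol receptors Nr1h2 and Nr1h3 (LXRβ and LXRα) passed in no comparison, with estimates between -0.27 and 0.31.

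Among hormone and vitamin receptors, both thyroid hormone receptors were higher in both cocktails. Thrb, the main form in hepatocytes, stood at 7.89 and 7.08 CPM in DMSO, 19.7 and 13.2 CPM in 3C and 22.5 and 22.1 CPM in 5C. It was 3.02 times higher in 5C (log2 fold change 1.59, SE 0.18, adjusted p = 0.000195) and 2.15 times higher in 3C (1.10, SE 0.18, adjusted p = 0.00204), and both passed in all 14 alternatives. Between the cocktails the interval left out 0 (0.09 to 0.89) but the adjusted p was 0.118. Thra rose by 0.84 in 5C (SE 0.08, adjusted p = 7.01e-05) and by 0.57 in 3C (SE 0.08, adjusted p = 0.000854), with 0.26 between them (adjusted p = 0.0700).

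Of the retinoic acid receptors, Rarb, itself a retinoic acid target, was lower in both cocktails, at -0.54 in 5C against DMSO (SE 0.14, adjusted p = 0.0185) and -0.51 in 3C (SE 0.14, adjusted p = 0.0293), from 13.4 and 12.4 CPM to between 8.25 and 9.59 CPM. The 5C call was lost without DMSO replicate 1 or either 5C library, at -0.61 to -0.49 (adjusted p = 0.0501 to 0.0947), and the 3C call without any 1 of the 4 libraries compared, at -0.55 to -0.46 (adjusted p = 0.0584 to 0.186). Rarg was lower in 3C alone, at -0.29 (adjusted p = 0.0316), a call lost without any 1 of the 4 libraries compared, at -0.35 to -0.23 (adjusted p = 0.0671 to 0.238). Rara passed in none. Among the RXR partners, Rxra rose from 173 and 165 CPM to 225 and 241 CPM in 5C (0.48, SE 0.08, adjusted p = 0.00144) and to 220 and 200 CPM in 3C (0.28, SE 0.08, adjusted p = 0.0256). That 3C call was lost without any 1 of the 4 libraries compared, at 0.22 to 0.35 (adjusted p = 0.0506 to 0.244). Rxrb lay between -0.05 and -0.01 in all comparisons. Rxrg was at 0 in both DMSO libraries, at 0.362 and 0.0586 CPM in 3C and at 0.304 and 0.433 CPM in 5C. It was at least 2.04-fold higher in 5C, counting DMSO at the floor of 3 fragments per library, and no fold is given for 3C, where 1 library was under the floor. The 5C call was lost without any 1 of the 4 libraries compared (adjusted p = 0.0615 to 0.0914). The 3C call was lost without either DMSO library, 3C replicate 1 or either 5C library (adjusted p = 0.0807 to 0.234).

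The steroid receptors passed in no comparison. Nr3c1, the glucocorticoid receptor, was the most abundant of them at 81.0 to 90.6 CPM in all 6 libraries, with intervals reaching from -0.23 to 0.20. Esr1 ranged from 1.67 to 6.61 CPM with large spread between replicates, and 5C against DMSO gave -0.95 (interval -1.90 to -0.0038, adjusted p = 0.130). Nr3c2, the mineralocorticoid receptor, lay between 5.99 and 8.52 CPM. Of the estrogen-related receptors, Esrra, which acts on mitochondrial genes, lay between -0.12 and 0.03.

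Among the orphan receptors, Nr2f2 (COUP-TFII) and Nr2f6 were higher in both cocktails. Nr2f2 stood at 36.8 and 31.9 CPM in DMSO, reaching 50.5 and 50.8 CPM in 3C (log2 fold change 0.53, SE 0.09, adjusted p = 0.00197) and 57.0 and 54.2 CPM in 5C (0.71, SE 0.09, adjusted p = 0.000273). Nr2f6 went from 103 and 95.8 CPM to 146 and 134 CPM in 3C (0.46, SE 0.11, adjusted p = 0.0137) and to 144 and 111 CPM in 5C (0.37, SE 0.11, adjusted p = 0.0316). The Nr2f6 call in 5C was lost without either DMSO library or 5C replicate 1, at 0.19 to 0.42 (adjusted p = 0.0754 to 0.193), and that in 3C without DMSO replicate 2 or 3C replicate 1, at 0.40 and 0.42 (adjusted p = 0.105 and 0.0722). The nuclear repressors Nr2c1 and Nr2c2 (TR2 and TR4), Nr6a1 (GCNF) and Nr2f1 passed in none.

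For the 28 receptors above the floor in every library that did not pass between 5C and 3C, a missed threshold is not evidence of equal levels. Their 95% intervals reached from -1.62 to 1.62, and 24 lay wholly within a change of 1 in either direction. The intervals of 8 left out 0 before adjustment.

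Some receptors share exons with a gene on the opposite strand, and the strand setting of the counting was not given in the sources used here, so reads in those stretches could belong to either gene. By GENCODE vM39, 75.4% of the exonic bases of Nr1i3 overlapped Tomm40l, 57.1% of Nr2f6 overlapped Ocel1, 52.3% of Nr1d1 overlapped Thra and 27.4% of Ppara overlapped Cdpf1. For Rarb, which was lower in both cocktails, 31.2% overlapped Top2b, a gene that averaged 139 CPM over the libraries. Tomm40l differed by 0.23 in 5C and 0.20 in 3C against DMSO, Ocel1 by -0.03 and -0.05, and Cdpf1 by 0.03 and 0.02, and none of them passed. Thra and Nr1d1 were both receptors that rose with 3C. Without the 11 receptors for which at least 10% of exonic bases overlapped other genes, 9 were higher and 2 lower in 5C against DMSO and 8 were higher and 3 lower in 3C against DMSO. None of the 6 receptors that differed between the cocktails was among those 11.

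Target genes were taken from textbook lists, some of which hold receptors themselves, and were counted by the same test. The lists were chosen with earlier results of these data known. Of all tested genes, 15.6% passed higher and 13.1% lower in 5C against DMSO. The shares were 12.7% and 11.8% in 3C against DMSO, and 7.33% and 5.33% in 5C against 3C. Of 17 PPARα targets, 15 were higher than in DMSO with each cocktail, and Fgf21 was lower with 3C. Median log2 fold changes were 1.17 in 5C and 1.07 in 3C, where the median of all genes was 0.00 and 0.01. Between the cocktails 7 were higher in 5C and none lower, although Ppara itself did not pass. Fabp1, a fatty acid carrier, averaged 0.573 ± 0.284 CPM in DMSO, 8.81 ± 0.0898 CPM in 3C and 68.3 ± 17.8 CPM in 5C (SD, n = 2) (5C against 3C 3.01, SE 0.26, adjusted p = 0.00108). Cyp4a10, a fatty acid hydroxylase, rose by 2.04 in 5C over 3C (SE 0.23, adjusted p = 0.000890).

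Of 17 tested CAR and PXR targets, 13 were higher and 1 lower in 5C than in DMSO, and 12 were higher in 3C. Between the cocktails 8 were higher and 3 lower in 5C, with a median of 0.72 against -0.01 for all genes. Cyp3a11, the main drug-oxidising cytochrome under PXR, averaged 0.980 ± 0.657 CPM in DMSO, 15.5 ± 4.52 CPM in 3C and 240 ± 5.51 CPM in 5C, and 5C exceeded 3C by 4.0 (SE 0.36, adjusted p = 0.00525). Ces2a, a carboxylesterase, exceeded by 2.66 (SE 0.31, adjusted p = 0.00316), and Slco1a4, an organic anion carrier, by 2.27 (SE 0.18, adjusted p = 0.000242). The 3 lower genes were Cyp3a13, Abcc2 and Abcc3, a cytochrome and 2 export pumps. For Nr1i2 itself the interval between the cocktails was -0.29 to 0.17. Cyp3a11, Ces2a and Cyp4a10 belong to families of near-identical genes, among which counting could split reads, so their values are uncertain. The hepatocyte markers, whose 12 genes were all higher than in DMSO with each cocktail, included 4 that were higher in 5C than in 3C.

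Of 9 tested FXR targets, a list that holds Nr0b2 and Nr1h4, 7 were higher and 1 lower in 5C than in DMSO, and 6 were higher and 1 lower in 3C. Slc51b, a bile acid exporter subunit, is among the higher genes in both counts. It was at 0 in both DMSO libraries, passed the filter through the cocktails alone and so had to differ from DMSO. It was at least 5.25-fold higher in 5C, counting DMSO at the floor per library. No fold is given for 3C, where 1 library was under the floor. The median was 2.39 in 5C with Slc51b at its bound and 1.43 in 3C without it, while the fitted medians were 2.83 and 1.55. The lower gene was Pltp, a phospholipid transfer protein. Abcb11, the bile salt export pump, averaged 0.576 ± 0.449 CPM in DMSO, 1.47 ± 0.516 CPM in 3C and 15.5 ± 1.29 CPM in 5C, and was higher in 5C than in 3C by 3.45 (SE 0.49, adjusted p = 0.00538). Slc10a1, the bile acid uptake carrier, was higher by 1.77 (SE 0.39, adjusted p = 0.0179). Cyp7a1 and Cyp8b1, bile acid synthesis enzymes on the FXR list, could not be tested, with means of at most 0.0604 CPM in any group. Fgf15, at 0 in every group, could not be tested either. Of 8 genes listed for the LRH-1 and SHP axis, 6 could be tested. All 6 were higher in 5C than in DMSO and 4 in 3C. Between the cocktails Nr0b2 and Scarb1, the HDL receptor, were higher in 5C (Scarb1 by 0.52, adjusted p = 0.00489), the opposite direction to Nr5a2.

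**Figure D5:**
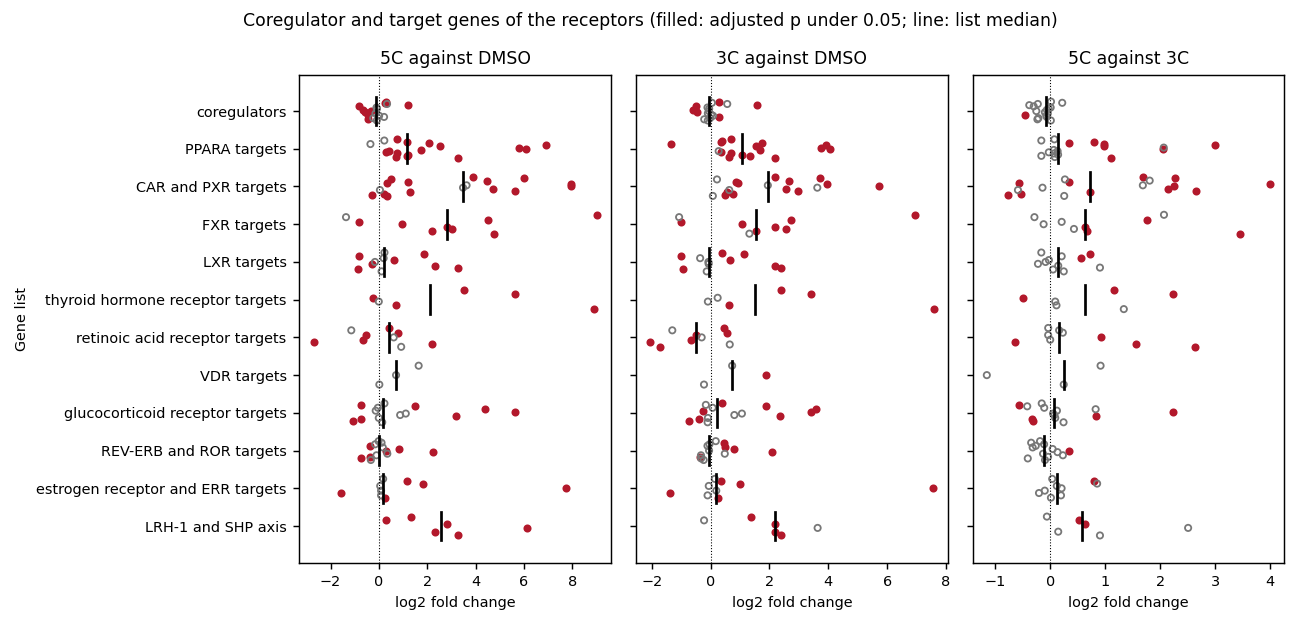
Log2 fold change of each tested gene in 12 lists of coregulators and receptor targets, in 3 comparisons; filled red points passed at an adjusted p under 0.05 and the black line is the list's fitted median. The lists of CAR and PXR, PPARα and FXR targets spread to the right in both comparisons with DMSO, and in 5C against 3C the median of the CAR and PXR targets is 0.72.

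The other lists were mixed. Their counts stand beside 15.6% higher and 13.1% lower of all tested genes in 5C against DMSO, and 12.7% and 11.8% in 3C against DMSO. The lists are short, so a count near these shares says little about a list. Of 6 tested thyroid hormone targets, 4 were higher than in DMSO with each cocktail, and Me1 (malic enzyme) was lower in 5C by 0.26 on the log2 scale (log2 fold change -0.26, SE 0.08, adjusted p = 0.0421). Those 4 hold Dio1, which was at 0 in both DMSO libraries, passed the filter through the cocktails alone and so had to differ from DMSO. Counting DMSO at the floor, Dio1 was at least 4.85-fold higher in 5C and 1.99-fold higher in 3C. Thrsp, which acts in fat synthesis, was also higher in 5C than in 3C by 1.16 (SE 0.26, adjusted p = 0.0185), and Me1 was lower (-0.50, SE 0.08, adjusted p = 0.00475). Retinoic acid targets split 3 higher and 3 lower in 5C and 2 higher and 4 lower in 3C. Cyp26b1, which degrades retinoic acid, was lower by 2.70 on the log2 scale in 5C (log2 fold change -2.70, SE 0.17, adjusted p = 5.52e-06), whereas Cyp26a1, an enzyme of the same function, rose by 2.22 (SE 0.29, adjusted p = 0.000461). Of 14 glucocorticoid targets, 4 were higher and 3 lower in 5C than in DMSO, and 5 and 3 in 3C. Tsc22d3 (GILZ) was lower in 5C than in 3C (-0.56, SE 0.08, adjusted p = 0.00254), while Pck1, a gluconeogenic enzyme that cyclic AMP also induces, was higher (2.23, SE 0.40, adjusted p = 0.0372). LXR targets split 4 higher and 3 lower in 5C and 5 higher and 2 lower in 3C, and estrogen receptor and ERR targets 4 higher and 1 lower in each. Greb1, on the last of these lists, was also at 0 in both DMSO libraries, so any call of it against DMSO was fixed by the filter. Of 17 coregulators, 3 were higher and 6 lower in 5C, and 3 were higher and 3 lower in 3C. Ppargc1a (PGC-1α), the coactivator of PPARα and ERRα, rose by 1.20 in 5C (SE 0.23, adjusted p = 0.00440) and by 1.59 in 3C (SE 0.24, adjusted p = 0.00112), and the corepressor Lcor was the only coregulator to pass between the cocktails (-0.45, SE 0.11, adjusted p = 0.0235).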

How the data were processed

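RNA of 6 dHep libraries was sequenced as paired reads from libraries made with a NEBNext Ultra RNA kit, and mapped by the authors to GRCm39. The authors deposited 2 tables: estimated counts per gene, whole numbers that were not normalized, and FPKM per gene, scaled by the authors to gene length and library size. The submitters' processing notes name featureCounts, Subread and DESeq2. The aligner, the annotation release and the strand setting were not given in the sources used here. Groups and replicate numbers came from the sample titles, 2 libraries per group.

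Values of 4 and 8 were in excess among the low estimated counts, so how many units a fragment stands for is unknown, and CPM were computed on the units as deposited. Counts were tested with edgeR 4.0.16 (R 4.3.3) by the quasi-likelihood F test with TMM factors, filterByExpr and robust dispersion, over all 6 libraries with 3 residual degrees of freedom. Adjusted p-values follow Benjamini and Hochberg over all 19135 genes tested, and SE and 95% intervals come from the same fit. With 2 libraries per group, no exact test over samples can pass on its own, so each call rests on the spread shared across genes and groups.

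Alternatives were DESeq2 1.42.0, other size factors, no filter, the 4 libraries compared, a replicate block, counts divided by 4, limma 3.58.1 on log2(FPKM + pseudocount) with pseudocounts of 1 and 0.1, and omission of each library. Exon overlaps came from GENCODE vM39, and promoters from RefSeq. Named were all receptors that passed between the cocktails or passed with a log2 fold change above 1 in any comparison, with each library's value, and of other genes at most the 3 with the largest change among those that passed in a list and comparison. Fgf21, Pltp, Cyp3a13, Abcc2, Abcc3, Cyp7a1, Cyp8b1 and Fgf15 were named after their values were seen. The members and lists were chosen with earlier results of these data known.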

Additional observations from a re-analysis of the deposited data

How the results depend on the processing

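Of 108 pairs of receptor and comparison, 41 passed. Over 571 refits of these under up to 14 alternatives, 465 kept the call, 106 lost it with the same sign and none changed sign. Of 932 refits of the other pairs, 12 passed and 37 changed sign while still not passing. The cause of lost calls was not tested. With limma on log2(FPKM + 0.1), receptors numbered 9 higher and 1 lower (5C against DMSO), 8 higher and 0 lower (3C against DMSO) and 0 and 0 (5C against 3C), and all genes 3528, 2754 and 218. With log2(FPKM + 1) there were 1 lower in 3C against DMSO, and 2 higher in 5C against 3C with 1409 genes in all. DESeq2 gave 5 higher and 4 lower in 5C against 3C, with 3179 genes in all against 2423. Requiring a log2 fold change above 1 left 6, 8 and 2 higher and 0 lower, and 2242, 1809 and 576 genes. Without receptors whose exons overlap other genes, an alternative chosen after seeing the data, 9 and 8 were higher in 5C and 3C against DMSO. Without Rxrg, at 0 in DMSO, also chosen after seeing the data, 13 and 13 were.

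Leaving out 1 library at a time gave 11 to 14 higher, 1 to 3 lower and 4033 to 5029 genes in 5C against DMSO, 10 to 13 higher, 1 to 4 lower and 2944 to 4504 genes in 3C against DMSO, and 0 to 5 higher, 0 to 3 lower and 1062 to 2812 genes in 5C against 3C. Without 1 library, the lone sample of its group is assumed to vary like the other groups.

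Deviations of equally numbered libraries correlated at -0.03, 0.00 and 0.02 across genes, so no deviation shared by number was seen. That cannot show whether equally numbered libraries came from the same animal or culture. With the replicate block, 2 receptors in place of 4 were higher in 5C against 3C, as Nr0b2 and Nr4a3 no longer passed, and 13 in place of 14 were higher in 3C against DMSO. Nr4a3, Nr1i3, Rxrg and the VDR target S100g lie near the floor, where depth limits any statement.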
